A study of Homo sapiens with 4 samples.

Results

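ARLNC1 and CMC2 are neighbouring genes on the minus strand of chromosome 16, and they were taken here as every event listed under the Ensembl identifiers ENSG00000260896 (ARLNC1) and ENSG00000103121 (CMC2). Together they hold 73 of the 287868 distinct alternative splicing events of the series, 44 for ARLNC1 and 29 for CMC2, and they are 2 of its 12300 gene identifiers. The pair was chosen on the numbers of events themselves, because ARLNC1 was listed in the siSTAMBPL1 libraries only and CMC2 in the siNC libraries only. Those numbers are therefore given as a description, with no test. Full-length cDNA was sequenced as PacBio long reads in 4 libraries of cells labelled Huh7, a hepatocellular carcinoma line. The siSTAMBPL1 group (2 libraries) was transfected with an siRNA against STAMBPL1, a deubiquitinase, and the siNC group (2 libraries) with a negative control siRNA, both by lipofection. The labels do not say whether replicates were separate cultures, so the spread between them may be technical. Each library has a list of its events with the transcripts that carry each form, either Ensembl transcripts or long-read transcripts whose names begin with PB, and no read number.

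ARLNC1 is a long noncoding RNA named for its regulation by androgen signalling, and it is best known from prostate cancer. CMC2 is a small mitochondrial protein with paired CX9C motifs, and in yeast its orthologue takes part in the assembly of cytochrome c oxidase, the last enzyme of the respiratory chain. An alternative splicing event sets 2 forms of a gene against each other, such as a skipped exon or a different first exon, and it needs at least 2 transcript structures, known or new, that differ there. Several events can come from a single transcript.

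In RefSeq on GRCh38.p14, which shares its coordinates with hg38, ARLNC1 is an lncRNA gene at chr16:80828735-80892596 and CMC2 a protein-coding gene at chr16:80966448-81006885. The gap between them is 73851 bases. Transcription runs from CMC2 towards ARLNC1, so CMC2 lies upstream. The opposite strand holds CENPN, a centromere protein that binds the centromeric histone CENPA, which starts 328 bases beyond the CMC2 start at chr16:81007214-81033107. The CMC2 and CENPN promoters are shown because CMC2 and the transcripts that join both loci share their upstream splice site close to this start. They come from RefSeq, with 250 bases before the annotated start in lower case and the first 30 transcribed bases in capitals, each read 5′ to 3′ on the strand of its gene. ARLNC1 is named only.
CMC2, chr16:81006856-81007135, minus strand: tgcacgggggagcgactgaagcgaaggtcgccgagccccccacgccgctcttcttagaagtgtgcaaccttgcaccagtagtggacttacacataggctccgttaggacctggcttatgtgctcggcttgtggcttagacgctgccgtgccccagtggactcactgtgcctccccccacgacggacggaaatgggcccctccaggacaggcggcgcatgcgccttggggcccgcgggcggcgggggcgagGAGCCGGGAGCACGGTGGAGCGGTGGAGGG
CENPN, chr16:81006964-81007243, plus strand: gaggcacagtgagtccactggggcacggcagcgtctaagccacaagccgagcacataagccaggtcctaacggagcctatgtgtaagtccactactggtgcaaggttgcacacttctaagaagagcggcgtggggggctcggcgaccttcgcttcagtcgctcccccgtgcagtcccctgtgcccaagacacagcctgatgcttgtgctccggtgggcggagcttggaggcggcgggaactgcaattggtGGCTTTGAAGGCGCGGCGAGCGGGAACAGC
These windows overlap by 172 bases, which each line gives as the reverse complement of the other. Their GC contents were 67.5% for CMC2 and 62.5% for CENPN, beside a median of 58.7% over the 35116 RefSeq promoter windows of 300 bases. RefSeq gives CMC2 a second promoter window, with its start at 80997676, a GC content of 32.5% and 0 bases in common with that of CENPN. No first exon listed for CMC2 starts there, and it is not printed.

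The libraries listed 119505 and 94432 events in siSTAMBPL1 replicates 1 and 2, against 140317 and 142215 in siNC replicates 1 and 2. They held 25463 and 17584 PB transcripts in siSTAMBPL1 replicates 1 and 2, against 32307 and 32750 in siNC replicates 1 and 2. The smaller siSTAMBPL1 lists bear on every number of events, and their part in the results was not tested. STAMBPL1 itself had 1 event in each siSTAMBPL1 library, against 3 and 6 events in siNC replicates 1 and 2. A number of events is no level of expression, so this does not measure the knockdown. The labelled cell type left few marks in the lists. Among hepatocyte and hepatocellular carcinoma markers, FGG, a fibrinogen chain, had 5 and 0 events in siSTAMBPL1 replicates 1 and 2, against 0 in each siNC library. HNF4A, a transcription factor of hepatocytes, had 0 and 4 events in siSTAMBPL1 replicates 1 and 2, against 8 and 6 in siNC replicates 1 and 2. No event was listed for ALB, APOA1, APOB, APOH, TTR, SERPINA1, FGA, FGB, TF, AHSG, AFP or GPC3. Of 8 prostate markers, only SLC45A3 had events, 3 and 0 in siSTAMBPL1 replicates 1 and 2, against 7 and 0 in siNC replicates 1 and 2. None of 4 haematopoietic and none of 4 fibroblast markers had one, and of 4 neuroectoderm markers only TUBB3 had events under its symbol, with 22 and 31 events in the siSTAMBPL1 libraries against 31 and 37 in the siNC libraries. Within the RefSeq span of MAP2, another of these markers, 2 events were listed under identifiers not given that symbol. A gene without an event is not shown to be unexpressed, since a transcript that takes part in no event leaves no trace.

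ARLNC1 had 40 and 23 events in siSTAMBPL1 replicates 1 and 2, and 0 in each siNC library. The groups did not overlap, which is the pattern the gene was chosen for. Of 11931 Ensembl genes with an event, 93 (0.779%) were listed in both siSTAMBPL1 libraries and in neither siNC library. Alternative first exons led in both libraries that listed ARLNC1, with 23 of 40 events in siSTAMBPL1 replicate 1 and 10 of 23 in replicate 2. The remaining events of replicate 1 were 7 skipped exons, 4 alternative 3′ splice sites, 3 alternative 5′ splice sites, 2 alternative last exons and 1 retained intron. Replicate 2 had 4 skipped exons, 4 alternative 3′ splice sites, 2 alternative last exons, 1 pair of mutually exclusive exons, 1 retained intron and 1 alternative 5′ splice site.

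CMC2 had 0 events in each siSTAMBPL1 library, and 22 and 17 events in siNC replicates 1 and 2. It is the mirror of ARLNC1, again without overlap and again the pattern it was chosen for. Of the same 11931 genes, 392 (3.29%) were listed in both siNC libraries and in neither siSTAMBPL1 library. Skipped exons led, with 13 events in each siNC library. Replicate 1 of siNC added 6 alternative last exons, 2 alternative first exons and 1 pair of mutually exclusive exons, while replicate 2 added 2 first exons, 2 mutually exclusive pairs and no last exon. No alternative 5′ or 3′ splice site and no retained intron was listed for CMC2, types that made up 8 of the 40 ARLNC1 events of siSTAMBPL1 replicate 1.

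**Figure D1:**
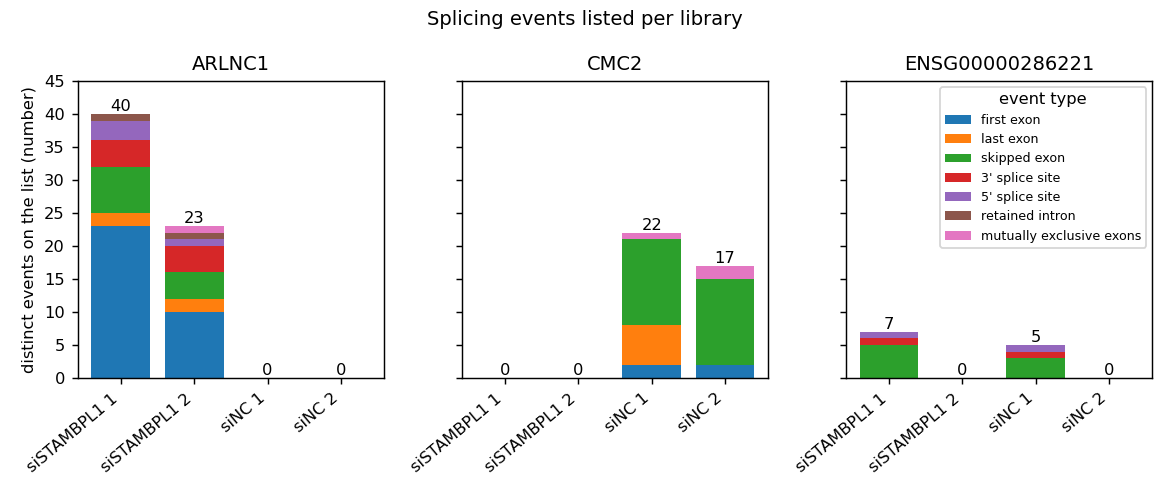
Number of distinct events (y axis) in each library (x axis), stacked by event type, for ARLNC1, CMC2 and ENSG00000286221, the identifier whose transcripts join both loci. ARLNC1 has 40 and 23 events in the siSTAMBPL1 libraries and none in siNC, CMC2 has none in siSTAMBPL1 and 22 and 17 in siNC, and ENSG00000286221 appears in replicate 1 of each group.

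On the scale of log2(scaled events + 1), where the number is first divided by the library's total relative to the mean total, ARLNC1 stood at 5.41 and 4.96 in siSTAMBPL1 replicates 1 and 2 and at 0 in each siNC library. The difference of means was 5.19. On that scale CMC2 stood at 0 in each siSTAMBPL1 library and at 4.35 and 3.99 in siNC replicates 1 and 2, a difference of -4.17. Because 1 group is at 0, both differences depend on the added 1 and are neither a fold nor a bound. Events with a PB transcript numbered 19 and 0 for ARLNC1 in siSTAMBPL1 replicates 1 and 2 and 0 in each siNC library, which gives a difference of 2.20. CMC2 had 0 such events in each siSTAMBPL1 library and 13 in each siNC library.

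Replicates listed the same gene but not the same set of events. Of the 44 ARLNC1 events, 19 were in both siSTAMBPL1 libraries, which is 47.5% of those of replicate 1 and 82.6% of those of replicate 2. They were 10 alternative first exons, 4 skipped exons, 3 alternative 3′ splice sites, 1 alternative 5′ splice site and 1 alternative last exon. Of the 29 CMC2 events, 10 were in both siNC libraries, 45.5% of those of replicate 1 and 58.8% of those of replicate 2. All 10 were skipped exons. Every first exon, last exon and mutually exclusive event of CMC2 was listed in 1 siNC library alone. Allowing 10 bases between coordinates left ARLNC1 at 19 shared events and brought CMC2 to 11.

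The ARLNC1 events lay between positions 80828737 and 80847828, a span of 19092 bases at the downstream end of the RefSeq gene. The 2 forms of these events named 16 different first exons, 19 to 356 bases long, with 9 distinct splice ends. They also named 5 last exons with 2 splice ends. Of these last exons, 3 share the splice end 80830757 and differ by 1 base at a time in length, 968 to 970 bases. Exons of both forms are included, and a library that listed an event need not have held both. The CMC2 events lay between 80966448 and 81020270, a span of 53823 bases. Their forms named 5 first exons with 3 splice ends, 76 to 375 bases long, and 5 last exons of 50 to 9732 bases with 2 splice ends. The first exon at chr16:81020195-81020270 lies beyond the RefSeq CMC2 start and inside the span of CENPN, on the opposite strand. Between the event spans of ARLNC1 and CMC2 were 118619 bases in which neither gene had an event.

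**Figure D2:**
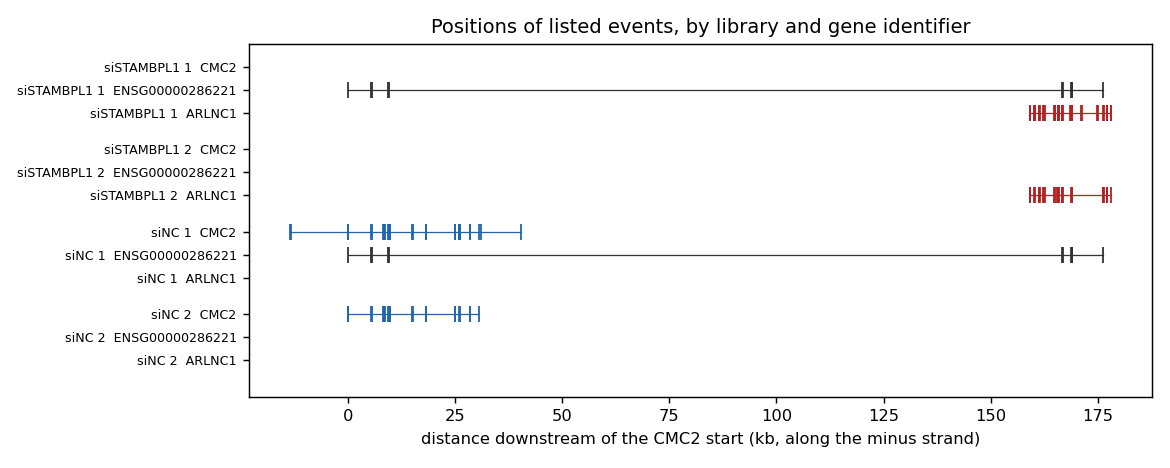
Positions of all exon ends in the listed events (ticks) against distance in kb from the CMC2 start along the minus strand, with a row for each library and gene identifier and a line from the lowest to the highest position. CMC2 and ARLNC1 ticks never share a library and never overlap in position, while the ENSG00000286221 rows of siSTAMBPL1 replicate 1 and siNC replicate 1 run across both.

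The lists of both genes can be accounted for by few transcripts. The lists were read as if a library listed an event as soon as it held any of the transcripts of that event. Which Ensembl transcripts a library held is not given, so this rule could be checked only in part. Each listed event without a PB transcript had an Ensembl transcript found in no missing event defined by the reference, with 0 exceptions. An Ensembl transcript was kept as a candidate where every event defined by the reference that it belongs to was listed, and the smallest set of PB and candidate transcripts that covers every event of a list was then sought. For ARLNC1 in siSTAMBPL1 replicate 1 it was PB.5487.5 with ENST00000651980 and ENST00000569356, which took part in 19, 20 and 3 of the 40 events. For replicate 2 it was ENST00000651980 with ENST00000651313, in 19 and 8 of the 23 events, and no PB transcript was listed. ENST00000651980 thus recurred in both siSTAMBPL1 libraries, and it was among the 15 candidates that the 41 of replicate 1 and the 19 of replicate 2 had in common.

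For CMC2 in siNC replicate 1 the smallest set was PB.5930.6 with ENST00000219400, which took part in 13 and 16 of the 22 events. In siNC replicate 2 it was PB.5931.1 with ENST00000565108, in 13 and 8 of the 17 events. The smallest set was unique in each of these 4 lists. The siNC replicates had 10 and 9 candidate Ensembl transcripts of CMC2 and shared 0 of them. Among 8828 genes with a candidate in both siNC libraries, 119 (1.35%) shared none. The same share was 1.30% in the siSTAMBPL1 group, 103 of 7901 genes. Both shares come from events defined by the reference alone and pool genes with any number of events. They were not matched to genes whose replicates share as few events as those of CMC2. If that rule holds, the numbers of 40, 23, 22 and 17 events correspond to 3, 2, 2 and 2 transcripts at the least. They are not a count of molecules.

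**Figure D3:**
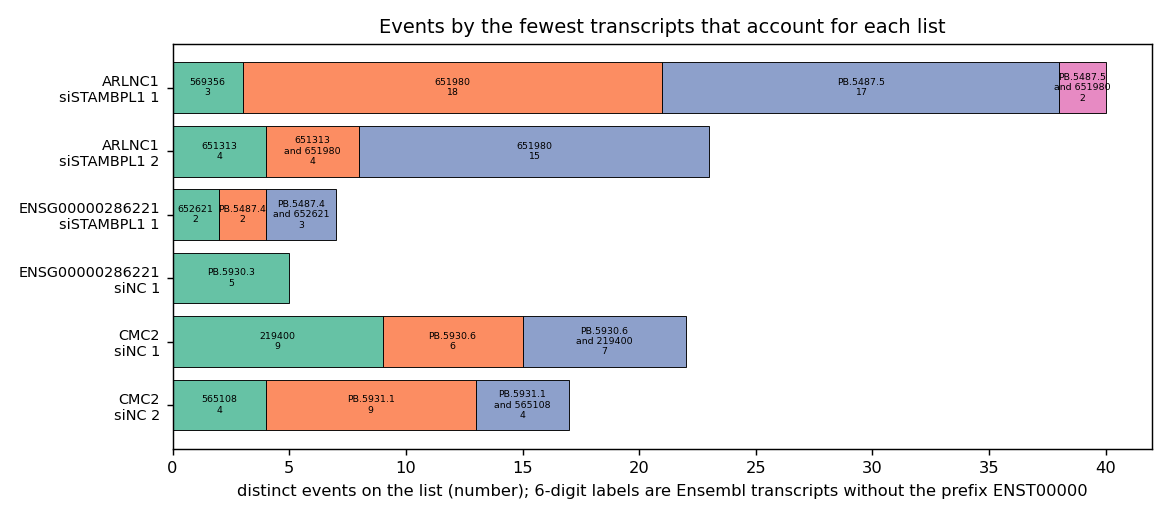
Number of events (x axis) of each list, split by which members of its smallest set of transcripts take part in them. ENST00000651980 takes part in 20 and 19 ARLNC1 events of siSTAMBPL1 replicates 1 and 2, whereas the CMC2 lists of the siNC replicates rest on different transcripts.

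PB.5487.5, the only PB transcript of ARLNC1, came from siSTAMBPL1 replicate 1. Its first exon was chr16:80846457-80846738, 282 bases, against 258 bases in ENST00000651980, which shares the splice end. It kept an intron inside an exon of 1143 bases at chr16:80840900-80842042. It then spliced from 80840119 straight to 80830757 across 9361 bases, skipping an exon of 114 bases at chr16:80837932-80838045, and ended in a last exon of 969 bases that reaches down to 80829789.

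The PB transcripts of CMC2 differed from each other in 3 internal exons. PB.5930.6 of siNC replicate 1 had a first exon of 152 bases (chr16:81006734-81006885), whose upstream end is the RefSeq start. It included exons of 87 bases (chr16:81001248-81001334) and 70 bases (chr16:80998285-80998354) and ended in a last exon of 372 bases (chr16:80975808-80976179). It left out an exon of 110 bases at chr16:80980770-80980879. PB.5931.1 of siNC replicate 2 had a first exon of 118 bases that shares the splice end but starts at 81006851. It left out the exons of 87 and 70 bases and included the exon of 110 bases. Both carried the junctions of the exons of 116 bases (chr16:80997314-80997429) and 72 bases (chr16:80981806-80981877).

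No transcript listed under ARLNC1 or CMC2 had an event position within the event span of the other gene. Parts of a transcript that take part in no event are not listed, so a reach beyond these positions would not be seen. Of 50 Ensembl and 1 PB transcripts of ARLNC1, 0 had a position in the CMC2 span, and of 24 Ensembl and 2 PB transcripts of CMC2, 0 had one in the ARLNC1 span. None of the 74 Ensembl transcripts was listed under another gene identifier, but an Ensembl transcript belongs to 1 identifier, so this says nothing about reach. The join was listed under an identifier of its own, ENSG00000286221, to which the reference used here gives no symbol. It lies on the minus strand between 80830757 and 81006734, a span of 175978 bases. All 6 of its Ensembl transcripts and both of its PB transcripts had positions in the spans of both genes.

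ENSG00000286221 had 7 and 0 events in siSTAMBPL1 replicates 1 and 2, against 5 and 0 in siNC replicates 1 and 2. It was thus listed in 1 library of each group, and replicates differed more than groups. Over all genes, limma gave it a log2 difference of 0.30 ± 1.42 (SE, n = 2 per group) with an adjusted p of 0.974. Its PB transcripts, PB.5487.4 of siSTAMBPL1 replicate 1 and PB.5930.3 of siNC replicate 1, carried the same 4 junctions. The most upstream runs 9304 bases from 81006734, the splice end of the main CMC2 first exon, to the CMC2 exon of 116 bases. From that exon an intron of 157091 bases leads to 80840222 within the ARLNC1 span. Junctions of 2073 and 7174 bases then pass through the exon of 114 bases that PB.5487.5 skips and end at 80830757, the splice end of the ARLNC1 last exons of 968 to 970 bases.

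Of the 11 junctions in ENSG00000286221 events, 5 also occurred in ARLNC1 events and 3 in CMC2 events. The other 3 belonged to neither gene and were the ones that join the spans, with introns of 157091, 166511 and 166556 bases. The first 2 of these were listed in siSTAMBPL1 replicate 1 and siNC replicate 1, and the longest in siSTAMBPL1 replicate 1 alone. ARLNC1 had 30 junctions in its events and CMC2 had 25.

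**Figure D4:**
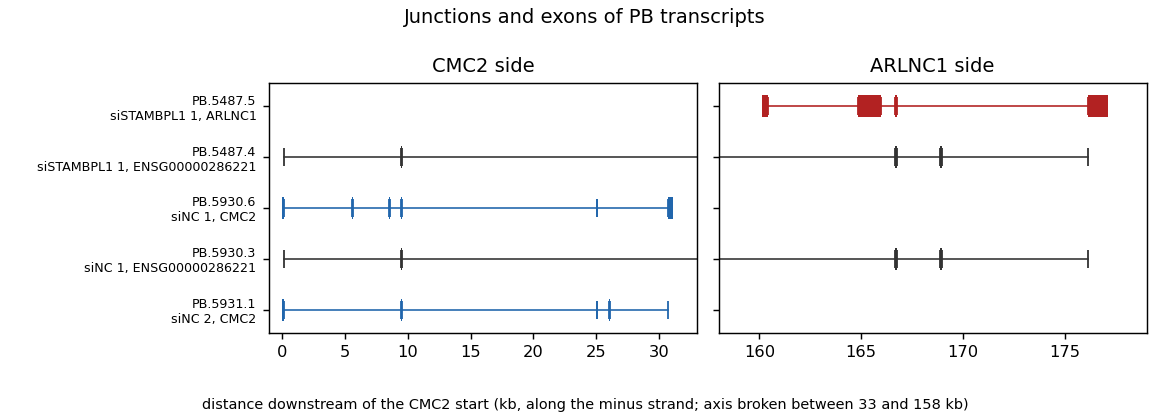
Junctions (lines between ticks) and exons (boxes, taken from an event or lying between consecutive junctions) of the 5 PB transcripts, against distance in kb from the CMC2 start along the minus strand, with the axis broken between the genes. PB.5487.4 and PB.5930.3 carry the same 4 junctions and leave the CMC2 side after the exon of 116 bases. The listed positions of PB.5487.5 lie on the ARLNC1 side and those of PB.5930.6 and PB.5931.1 on the CMC2 side.

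The joining transcripts also bear on how the 2 genes were listed. The long-read loci differed between the libraries: PB.5487 of siSTAMBPL1 replicate 1 held ARLNC1 and ENSG00000286221, PB.5930 of siNC replicate 1 held CMC2 and ENSG00000286221, and PB.5931 of siNC replicate 2 held CMC2 alone. PB loci under more than 1 gene identifier made up 6.75% and 5.83% of the loci of siSTAMBPL1 replicates 1 and 2, against 7.02% and 9.56% in siNC replicates 1 and 2. An event's coordinates were in some cases listed under both identifiers. This was so for 3 ARLNC1 events, an alternative 3′ splice site, an alternative 5′ splice site and the skipping of the exon of 114 bases, and for 1 CMC2 event, the skipping of the exon of 87 bases. In siNC replicate 1 those 3 ARLNC1 events were listed under ENSG00000286221 only, and in siSTAMBPL1 replicate 1 the CMC2 event likewise. Counted by coordinates under either identifier, ARLNC1 had 40 and 23 events in siSTAMBPL1 replicates 1 and 2, against 3 and 0 in siNC replicates 1 and 2. CMC2 then had 1 and 0 events in siSTAMBPL1 replicates 1 and 2, against 22 and 17 in siNC replicates 1 and 2. Exons of each gene were thus present in 1 library of the group that listed none under the gene's own identifier, as parts of joined transcripts. The differences became 4.25 for ARLNC1 and -3.66 for CMC2 on the log2(scaled events + 1) scale. This way of counting was chosen after the data were seen.

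Along chromosome 16, 11 other identifiers had events within 1 Mb of the pair, and 10 could be tested with limma over all genes. Of these, 0 passed an adjusted p of 0.05 and 3 had an unadjusted p below 0.05. Over all 9933 genes tested, 0 passed (0%), with 293 higher (2.95%) and 434 lower (4.37%) at an unadjusted p below 0.05 and a smallest adjusted p of 0.320. The balance depended on the scaling, with 186 higher and 994 lower without scaling, and 454 higher and 319 lower when scaled by PB transcripts. CDYL2, a chromodomain protein gene downstream of ARLNC1, had 11 and 6 events in siSTAMBPL1 replicates 1 and 2, against 4 in each siNC library. The log2 difference was 1.22 ± 0.328 (SE), with an adjusted p of 0.574 in limma (n = 2 per group). CDYL2 events with a PB transcript numbered 10 and 5 in siSTAMBPL1 replicates 1 and 2, against 0 in each siNC library. Over the alternative settings the difference ranged from 0.14 to 3.27. The lower end came from events whose 2 forms each have an Ensembl transcript, the upper end from events with a PB transcript.

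CENPN, whose lowest event position of 81006516 lies inside CMC2, had 8 and 7 events in siSTAMBPL1 replicates 1 and 2, against 20 and 16 in siNC replicates 1 and 2. The log2 difference was -0.78 ± 0.282 (SE), with an adjusted p of 0.677 in limma (n = 2 per group). Events with a PB transcript numbered 0 and 4 in siSTAMBPL1 replicates 1 and 2, against 16 and 14 in siNC replicates 1 and 2. The direction turned, to 0.15, when the count was limited to events whose 2 forms each have an Ensembl transcript.

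ENSG00000166455, which lies over C16orf46 together with ENSG00000260643, had 2 and 3 events in the siSTAMBPL1 libraries against 0 in each siNC library, a log2 difference of 1.96 ± 0.578 (SE) with an adjusted p of 0.605 in limma (n = 2 per group). ENSG00000260643 had 0 events in each siSTAMBPL1 library against 1 in each siNC library. Its events run on to 81084463, past the lowest GCSH event position of 81081945. Each of these identifiers was listed in 1 group only, with few events. Over all 11931 genes with an event, 0.779% were listed in both siSTAMBPL1 libraries only and 3.29% in both siNC libraries only. ATMIN, which encodes a partner of the kinase ATM, had 4 events in every library. GCSH, a protein of the glycine cleavage system, had 5 and 0 events in siSTAMBPL1 replicates 1 and 2, against 5 in each siNC library. PKD1L2 had 7 and 5 events in the siSTAMBPL1 libraries against 5 and 3 in the siNC libraries. PLCG2, a phospholipase C, had 8 and 4 events in the siSTAMBPL1 libraries against 4 and 6 in the siNC libraries. CMIP had 3 and 2 events in siSTAMBPL1 replicates 1 and 2 against 3 in each siNC library.

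**Figure D5:**
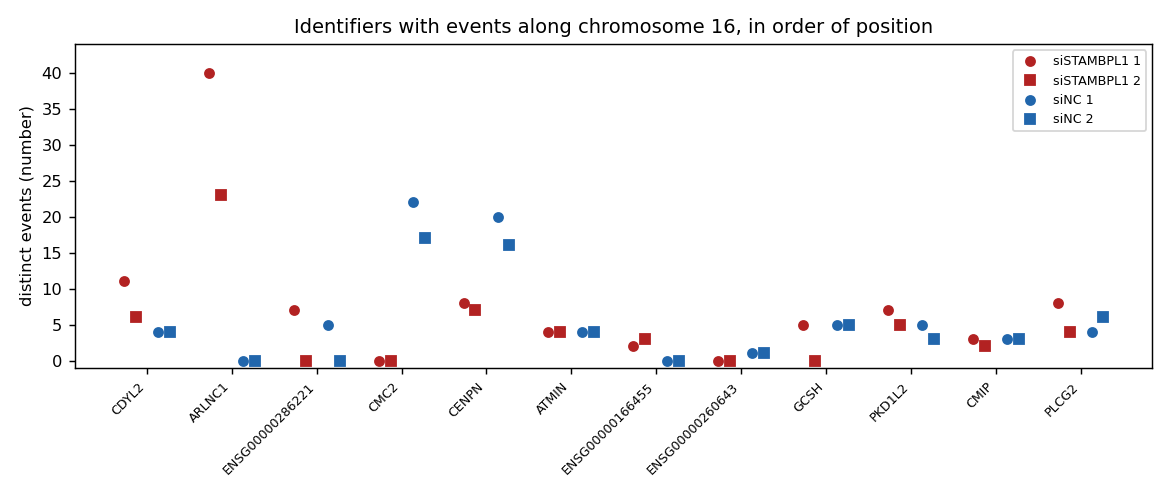
Number of distinct events (y axis) of 12 identifiers within 1 Mb, in order of position on chromosome 16 (x axis), with siSTAMBPL1 libraries in red, left of siNC libraries in blue, and circles for replicate 1 and squares for replicate 2. ARLNC1 (40 and 23 events in siSTAMBPL1, 0 in siNC) and CMC2 (0 in siSTAMBPL1, 22 and 17 in siNC) stand farthest apart between groups, the pattern they were chosen for. ATMIN has 4 events in every library.

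CMC2's partners in the respiratory chain were read from lists of genes. Of 29 cytochrome c oxidase assembly factors, 26 had an event and 21 besides CMC2 were tested. None passed the adjusted threshold in limma in either direction. At an unadjusted p below 0.05, 0 were higher and 3 lower, COX17, COA4 and SCO2, all listed in the siNC libraries only, as was CMC2. Over all genes tested, 4.37% were lower at that threshold, and 3.29% of genes with an event were listed in both siNC libraries only. Over all lists of genes used here, 4 of 44 genes tested had an unadjusted limma p below 0.05, all lower (these 3 and NCOA1). With the replicate number as a block there were 0. A minimum of 10 events also gave 0, but these 4 genes fell below that minimum and were not tested. Without scaling, 0 were higher and 6 lower of 44 list genes tested, beside 186 higher and 994 lower of all 9933. From distinct transcripts per gene, 2 were higher and 6 lower of 53, beside 484 higher and 545 lower of all 10892. From events whose forms each have an Ensembl transcript, 2 were higher and 3 lower of 39, beside 260 higher and 348 lower of all 8518. From events with a PB transcript, 0 were higher and 1 lower of 23, beside 225 higher and 359 lower of all 7947. The list's median log2 difference was -0.26, beside 0.05 over all genes tested. COX17, a copper chaperone of the intermembrane space, had 0 events in each siSTAMBPL1 library against 4 and 2 in siNC replicates 1 and 2, with a log2 difference of -1.82 ± 0.602 (SE) and a limma adjusted p of 0.631. COA4, a small intermembrane space protein, had 0 events in each siSTAMBPL1 library against 3 in each siNC library, with -1.86 ± 0.541 and a limma adjusted p of 0.597. SCO2, a metallochaperone that helps deliver copper to the enzyme, had 0 in each siSTAMBPL1 library against 3 and 4 in the siNC libraries, with -2.02 ± 0.531 and a limma adjusted p of 0.559.

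Other assembly factors had events in siSTAMBPL1 libraries too. SCO1, a relative of SCO2, had 5 events in every library. CMC1, the twin CX9C protein named alongside CMC2, had 6 and 0 events in siSTAMBPL1 replicates 1 and 2, against 5 in each siNC library. COA1 had 22 and 21 events in the siSTAMBPL1 libraries, against 32 and 37 in the siNC libraries. COX19, another twin CX9C protein, had 1 event in every library. Of 16 subunits of the enzyme, 9 had an event and 7 were tested, with 0 higher and 0 lower at an unadjusted p below 0.05 and a median log2 difference of 0.10. COX6B1 was listed in siNC only, with 0 events in each siSTAMBPL1 library against 3 and 1 in siNC replicates 1 and 2, too few to be tested. COX4I1 had 19 and 15 events in siSTAMBPL1 replicates 1 and 2, against 17 and 14 in siNC replicates 1 and 2. Of 29 twin CX9C and related intermembrane space proteins, 13 besides CMC2 were tested, 0 higher and 2 lower at an unadjusted p below 0.05 (COX17 and COA4 again), beside 2.95% higher and 4.37% lower over all genes tested, with a median of -0.38. Median differences of these lists are on the log2(scaled events + 1) scale.

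ARLNC1's setting in androgen signalling was read in the same way. Of 22 androgen-related genes, 8 had an event and all 8 were tested. None passed the adjusted threshold in limma, with 0 higher and 1 lower at an unadjusted p below 0.05, beside 4.37% lower over all genes tested and 0 list genes with the replicate block. The median log2 difference was -0.39, beside 0.05 over all genes tested. The lower gene was NCOA1, a nuclear receptor coactivator, with 0 events in each siSTAMBPL1 library against 3 in each siNC library, a log2 difference of -1.86 ± 0.541 (SE) and a limma adjusted p of 0.597. KLK2, KLK3 and TMPRSS2, known for their induction by androgen, had no event in any library. FKBP5, an androgen-induced cochaperone, had 3 and 2 events in the siSTAMBPL1 libraries against 8 and 4 in the siNC libraries. FOXA1, a pioneer transcription factor of liver and prostate, had 3 events in every library.

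By the Euclidean distance between log2(scaled events + 1) values over the 4 libraries, the genes most like ARLNC1 were ATXN3, CCDC120 and DNAH14. ATXN3 (distance 0.992) had 21 and 17 events in the siSTAMBPL1 libraries against 0 in each siNC library. CCDC120 (distance 1.08) had 21 and 15 events in the siSTAMBPL1 libraries against 0 in each siNC library. DNAH14 (distance 1.64) had 18 and 13 events in the siSTAMBPL1 libraries against 0 and 1 in the siNC libraries. ARLNC1 had the most events among these 4 genes in each siSTAMBPL1 library. The genes most like CMC2 were COMMD4 (distance 0.322), MBNL1 (0.390) and BRME1 (0.635), each with 0 events in the siSTAMBPL1 libraries. COMMD4 had 18 and 15 events in siNC replicates 1 and 2, MBNL1, a splicing regulator, 17 and 15, and BRME1 14 and 15.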

How the data were processed

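The members and the gene lists were chosen with earlier results of these data known. PacBio long-read cDNA of 4 libraries was analysed, 2 per group, grouped by sample title. The deposited files are text lists of alternative splicing events, 1 per library, per the file headers, and hold no reads, counts or other quantity. Coordinates are on hg38, as the submitters' processing notes name it. How reads were aligned and transcripts and events called is not given in the sources used here. Depth is unknown, so no interval is given, and the number of PB transcripts is printed in its place.

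Distinct events were matched by gene, type and every coordinate. Between libraries, an event always had the same Ensembl transcripts (0 mismatches), and each of the 31268, 29355, 32376 and 32763 events without a PB transcript (siSTAMBPL1 replicates 1 and 2, siNC replicates 1 and 2) held an Ensembl transcript that occurs in no missing reference-defined event. Only events listed in at least 1 library could exclude a candidate transcript. Symbols came from the positions in the RefSeq table of GRCh38.p14, where at least a share of 0.6 of the event positions lay within 50 bases of a gene, a share of 0.2 of the gene was covered, and the match exceeded the next by a ratio of 1.5. Of 11931 Ensembl genes, 10577 received 1 symbol, 205 lay over several genes, 136 shared a symbol and 1013 had none. Sequences are from the RefSeq promoter table, which matched CMC2 and CENPN.

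Each gene's number of events was scaled to the mean library total, 1 was added as pseudocount, and log2 values were fitted, for genes whose events in all libraries summed to 5 or more, with limma 3.58.1 in R 4.3.3 (lmFit, eBayes with trend), adjusted by Benjamini-Hochberg over all genes at 0.05. Such log2 differences understate changes of genes with few events. The fit was tested on simulated data. Named genes were the members, STAMBPL1, neighbours within 1 Mb, list genes at an unadjusted p below 0.05 or listed in 1 group only, the 3 genes nearest each member, markers without an event and identifiers sharing coordinates or loci. CMC1, COA1, COX19, SCO1, COX4I1, FKBP5 and FOXA1 were named after their values were seen. Other scalings, pseudocounts, filters, event sets, a replicate block and leaving out each library were tried as alternatives. Some genes that the naming rule covers are not reported here. Python 3.11.15 and pandas 2.3.3 were used.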

Additional observations from a re-analysis of the deposited data

How the results depend on the processing

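The difference was 5.19 for ARLNC1 and -4.17 for CMC2 on the log2(scaled events + 1) scale. Its sign was fixed by the choice of genes with 1 group at 0, so the alternatives bear on its size alone. With a pseudocount of 0.5 they were 6.17 and -5.13. From events with a PB transcript they were 2.20 and -3.60, and from distinct transcripts per gene 5.73 and -4.59. Counted by coordinates under either identifier, a setting added once the data had been seen, they were 4.25 and -3.66. Leaving out each library in turn gave 4.98 to 5.52 for ARLNC1 and -4.29 to -3.93 for CMC2. Limited to events whose forms each have an Ensembl transcript, ARLNC1 stood at 4.76. With the same limit, 4 genes higher and 7 lower of 8518 tested passed the threshold, against 0 and 0 of 9933, and CENPN turned to 0.15. No gene of the lists passed under any alternative. Genes listed in siSTAMBPL1 only numbered 93 of 11931 (0.779%). From events with a PB transcript they were 163 of 10108 (1.61%), and with at least 5 events 50 of 9933 (0.503%). Genes listed in siNC only numbered 392 (3.29%), and in the same settings 507 (5.02%) and 245 (2.47%). The cause of these changes was not tested. Across the alternatives CDYL2 ranged from 0.14 to 3.27 and CENPN from -2.41 to 0.15, with smallest adjusted p of 0.256 and 0.225. The ranges were -2.70 to -1.76 for COX17, -2.65 to -1.80 for COA4, -2.83 to -1.96 for SCO2, -2.81 to -1.80 for NCOA1 and 1.79 to 2.76 for ENSG00000166455, with smallest adjusted p of 0.178, 0.129, 0.132, 0.129 and 0.214. CDYL2 and CENPN were tested in all 14 settings, the main one included. COX17, COA4 and NCOA1 were tested in 10 of them, and SCO2 and ENSG00000166455 in 9. In the rest these genes had too few events for the filter.

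With the replicate number as a block, 0 genes passed in either direction and 212 higher and 345 lower had an unadjusted p below 0.05. With 2 libraries in each group, a replicate block cannot change a difference of means, so 5.19 and -4.17 stand by construction. Deviations of same-numbered libraries correlated at 0.019 and the labels name no shared batch, so the numbers were not taken to pair the libraries.

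With 2 libraries per group, no read numbers and lists that record presence alone, the lists give neither levels of ARLNC1 and CMC2 nor shares of their forms.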
